A study of Cavia porcellus with 30 samples.

Results

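The high dose of thioacetamide was compared between its early and its late effect on guinea pig liver, as a difference of differences. The effect at 33 h, which is high dose minus vehicle at 33 h, was set against the effect at 9 h, which is high dose minus vehicle at 9 h. Members were chosen by the dose and duration labels, and 20 of the 30 animals of the series belong to the comparison. They are Hartley guinea pigs, an outbred laboratory breed, in 4 groups of 5 animals with 1 liver library each. High dose animals received thioacetamide at 100 mg/kg and vehicle animals received saline at 3 ml/kg, and livers were taken at 9 h or at 33 h, so each dose group has its own vehicle group of the same time. The other 10 animals received a low dose of 25 mg/kg with the same times and enter only where named. Ages and sexes, the route of dosing and any pooling are not given in the labels, and each library was taken as 1 animal. The design text of the series states that the doses were meant to give different degrees of liver injury.

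Thioacetamide is not itself the injurious agent. Enzymes of the hepatocyte, chiefly of the cytochrome P450 and flavin monooxygenase families, oxidise it to an S-oxide and then to a reactive product that binds to proteins and lipids, most heavily around the central veins of the liver lobule. In rodents an early phase of stress signalling is followed by cell death, entry of inflammatory cells and regrowth, and an effect on RNA can therefore be early, late, sustained or of opposite sign at the different times. A difference of differences asks which of these a transcript shows, with any drift of the vehicle livers between the times removed.

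The libraries of the 20 animals held 21352800 to 33842300 estimated counts each. Values are per Ensembl transcript, and 18239 of 25824 listed transcripts passed the filter on low counts. The identifiers could be matched to 0 of the 37416 genes of the reference table, so results are given for sets of transcripts and for 4 transcripts by identifier, and the tissue could not be checked against liver markers. In bulk liver RNA, fewer cells of a type and less RNA per cell cannot be told apart, and a count is a share of the library. Scaling between libraries therefore matters. The factor applied by TMM, a scaling that trims the most extreme transcripts, was 1.23 to 1.43 in the 5 high dose libraries of 33 h and 0.822 to 0.951 in the other 15 libraries of the comparison, without overlap. Replacing TMM by plain library totals raised the median log2 difference of all tested transcripts from 0.06 to 0.68, and results are given under both where this changes them.

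The high dose effect differed between 33 h and 9 h for 6548 transcripts, 35.9% of those tested. It was more positive at 33 h for 3480 transcripts (19.1%) and more negative for 3068 (16.8%), by edgeR's quasi-likelihood test at a Benjamini-Hochberg adjusted p under 0.05. With TMM, large differences were more often negative: at least a 2-fold difference was called for 1682 more negative and 1292 more positive transcripts, and at least a 4-fold difference for 516 and 342. With library totals this turned, to 732 negative and 4694 positive differences of at least 2-fold and 216 and 934 of at least 4-fold. The median standard error of a difference was 0.27 on the log2 scale, against an interquartile range of all fitted differences from -0.53 to 0.56. All 3480 positive differences were called with the same sign under library totals. Of the 3068 negative ones, 1271 were called with the same sign there and 47 with the opposite sign, and 86.9% of all calls were then positive.

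**Figure D1:**
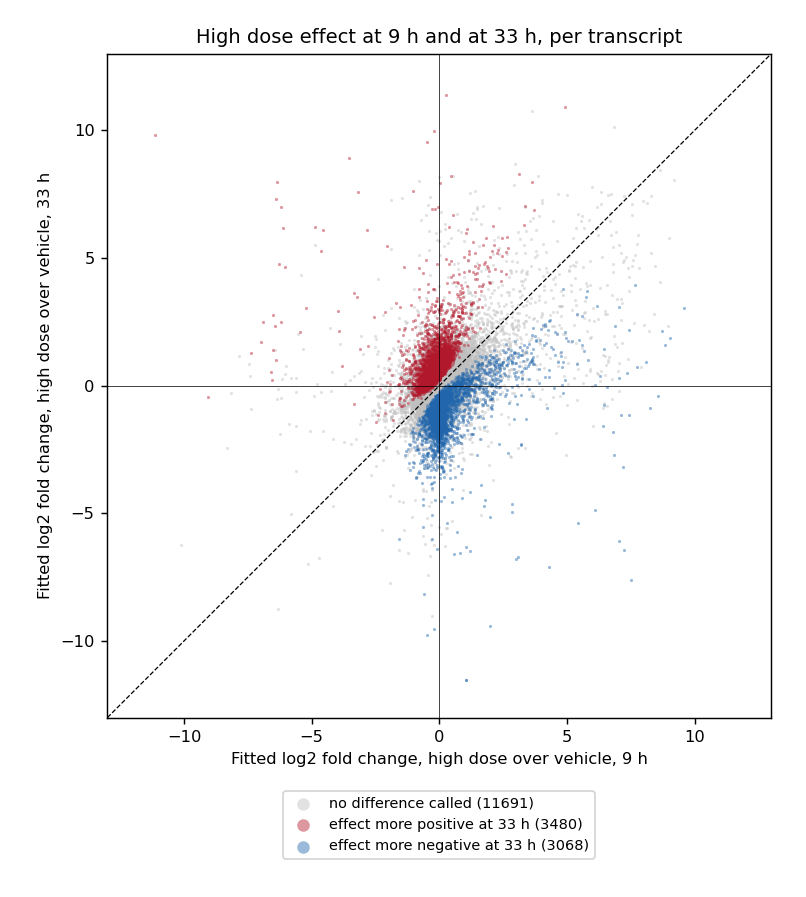
Each point is 1 of 18239 tested transcripts, with the fitted log2 fold change of high dose over vehicle at 9 h on the x axis and at 33 h on the y axis. Called differences lie above (red, 3480) or below (blue, 3068) the dashed line of equal effects, and both are densest near 0 on the 9 h axis.

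The difference came from the treated livers far more than from the vehicle livers. The same quantity can be written as the change from 9 h to 33 h among high dose livers minus that among vehicle livers. With TMM, high dose livers differed directly between the times in 8324 transcripts (45.6% of those tested), and vehicle livers in 106 (0.581%). With library totals the counts were 11169 and 139, and 9568 of the 11169 were higher at 33 h. The vehicle count was unstable, from 39 (without vehicle animal 5 of 33 h) to 258 (without vehicle animal 4 of 33 h) when 1 animal was left out and 470 with DESeq2, all far below the treated count. Of the 6548 transcripts with a called difference, 5943 were called in the same direction between the treated groups, 605 were not called there and 0 were called in the opposite direction. Vehicle livers were called for 80 of the 6548. The fitted vehicle part had a median of 13.9% of the difference (quartiles 0.707% and 28.8%) and exceeded 50% of it for 510 transcripts, or 7.79%. Its size in single transcripts is a description, since called differences are those where both parts tend to add. A further 2381 transcripts were called between the treated groups, 1219 higher and 1162 lower at 33 h (against 23.9% and 21.8% of all tested transcripts called that way), without a called difference of effects.

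Most called differences were late effects. Sorting the 6548 by the calls of the high dose against vehicle at each time gave 2092 transcripts not called at 9 h and higher at 33 h, and 1996 not called at 9 h and lower at 33 h. The late rises had a median log2 fold change of -0.04 at 9 h and 0.84 at 33 h. The late falls had medians of 0.00 and -1.09. For comparison, with TMM 26.3% of all tested transcripts were called at 9 h (13.5% higher, 12.8% lower) and 50.7% at 33 h (28.2% higher, 22.5% lower). With library totals 11939 transcripts were called at 33 h, 10360 higher and 1579 lower. The late falls were at a median of 25.7 TPM (a level corrected for transcript length) in vehicle livers, against 5.11 TPM for the late rises and 3.82 TPM for all tested transcripts. Their median length was 2163 bases, against 2533 for the late rises and 2537 for all tested transcripts. A fall needs counts to lose and a rise does not, so the vehicle levels of these sets depend in part on what could be called. Under library totals the late rises had a median of 1.45 at 33 h and all 2092 kept a positive called difference. The late falls had a median of -0.49 there, and 883 of 1996 kept a negative called difference.

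Effects called at 9 h and not at 33 h formed the next largest sets. There were 551 transcripts that were lower at 9 h and not called at 33 h, with medians of -0.57 and 0.09. There were 431 that were higher at 9 h and not called at 33 h, and their medians went from 1.18 to -0.02. The lost rises had the larger median at 9 h, and 276 of the 431 differed by at least 2-fold between times, against 95 of the 551. A missing call at 33 h does not show that a transcript was back at the vehicle level. Under library totals 155 of the 431 lost rises had a negative called difference and 5 a positive one, while all 551 lost falls had a positive one. The 33 h median there was 0.70 for the lost falls and 0.58 for the lost rises, so where these sets stood relative to vehicle at 33 h depended on the scaling.

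Effects of opposite sign at the different times were called for 535 transcripts. Of these, 372 were lower at 9 h and higher at 33 h, with medians of -0.45 and 0.48, and 163 were higher at 9 h and lower at 33 h, with medians of 0.59 and -0.61. The median difference of the first set was 0.96 with TMM and 1.57 under library totals, which shift all differences upward, and all 372 were called positive there. Of the second set 103 of 163 kept a negative called difference, but the median at 33 h was -0.01, so that with this scaling the set as a whole was near vehicle late rather than below it. Counted anew under library totals, 1181 transcripts were lower then higher and 33 were higher then lower.

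Effects of the same sign at both times also differed in size. Rises grew for 251 transcripts, from a median of 0.57 to 1.42, and shrank for 179, from 2.21 to 0.94. Falls deepened for 204 transcripts, from -0.49 to -1.28, and lessened for 51, from -0.89 to -0.36. Under library totals 73 of the 179 shrinking rises had a negative called difference, and their 33 h median was 1.55. Of the 204 deepened falls 47 had a negative called difference there and 10 a positive one, with medians of -0.50 at 9 h and -0.69 at 33 h. The 51 lessened falls had a 33 h median of 0.24 there, above vehicle. The remaining 258 called differences, 163 more positive and 95 more negative, had no call at either time.

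**Figure D2:**
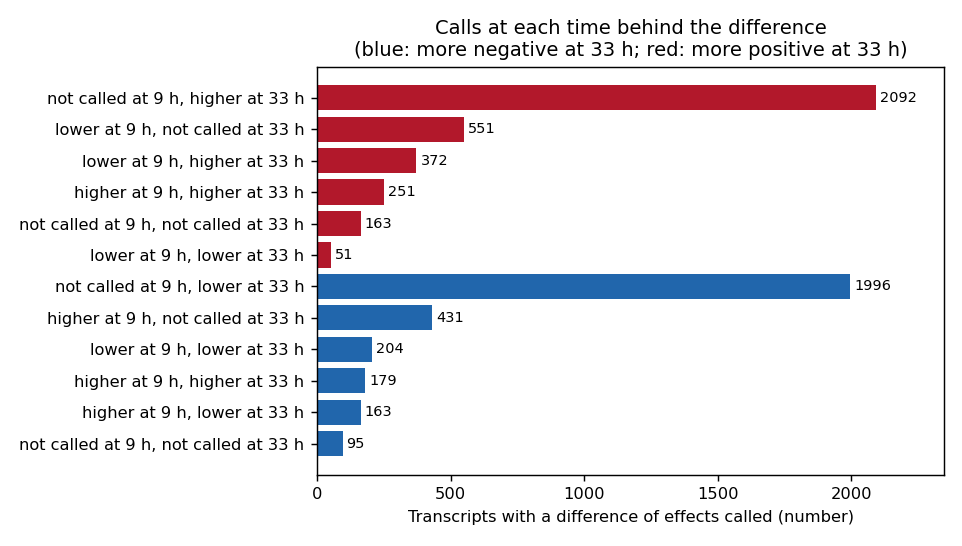
Bars give the number of transcripts with a called difference of effects for each pair of calls of high dose against vehicle at 9 h and 33 h. Late rises (2092) and late falls (1996) were the most frequent in each direction.

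The transcripts called at 9 h were then followed to 33 h. Of 2469 transcripts higher at 9 h, 82.9% had a fitted effect above 0 at 33 h, 1464 were called higher again, 842 were not called and 163 were called lower. Of 2327 transcripts lower at 9 h, 65.4% had a fitted effect below 0 at 33 h, 988 were called lower again, 967 were not called and 372 were called higher. The median effect went from 0.98 to 0.70 for the rises and from -0.53 to -0.20 for the falls. Choosing transcripts by their call at 9 h makes their 9 h values larger, so these medians are a description. The difference of effects itself was called toward vehicle for 773 early rises and 974 early falls, away from vehicle for 251 and 204, and not called for 1445 and 1149. Under library totals, which moved the median 33 h effect of all tested transcripts from 0.09 to 0.70, 95.7% of the early rises but 25.0% of the early falls kept their direction, with 33 h medians of 1.30 and 0.40, so the 33 h direction of the early falls turned with the scaling. Across all 18239 transcripts the fitted effects at 9 h and 33 h, which share no animal, had a Pearson correlation of 0.35 and a Spearman correlation of 0.34, a description over transcripts that are not independent.

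Individual animals followed the sets they helped to define. For each treated animal the median log2 ratio to the mean of its vehicle group was taken over each set, with TMM scaling only. The late rises stood at 0.93, 0.88, 0.93, 0.78 and 0.65 in the 5 high dose animals of 33 h, and between -0.08 and 0.03 in those of 9 h. High dose animal 5 of 33 h had the lowest value among the 33 h animals and animals 1 and 3 the highest. The late falls stood at -0.998, -1.06, -1.28, -1.12 and -0.92 at 33 h and between -0.06 and 0.05 at 9 h. Animal 5 was again the nearest to vehicle with this scaling. The TMM factors of the 5 animals were 1.26, 1.43, 1.38, 1.31 and 1.23, so which animal is nearest can depend on the scaling. For the transcripts lower then higher, the 9 h animals lay between -0.52 and -0.35 and the 33 h animals between 0.38 and 0.59. For those higher then lower the ranges were 0.46 to 0.69 and -0.69 to -0.51, though under library totals the fitted 33 h median of this set was -0.01. These separations follow from how the sets were chosen and carry no test. Over all tested transcripts, the treated animals of the different times did not overlap, each relative to its vehicle mean, for 36.7%, and for 85.8% of those with a called difference.

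**Figure D3:**
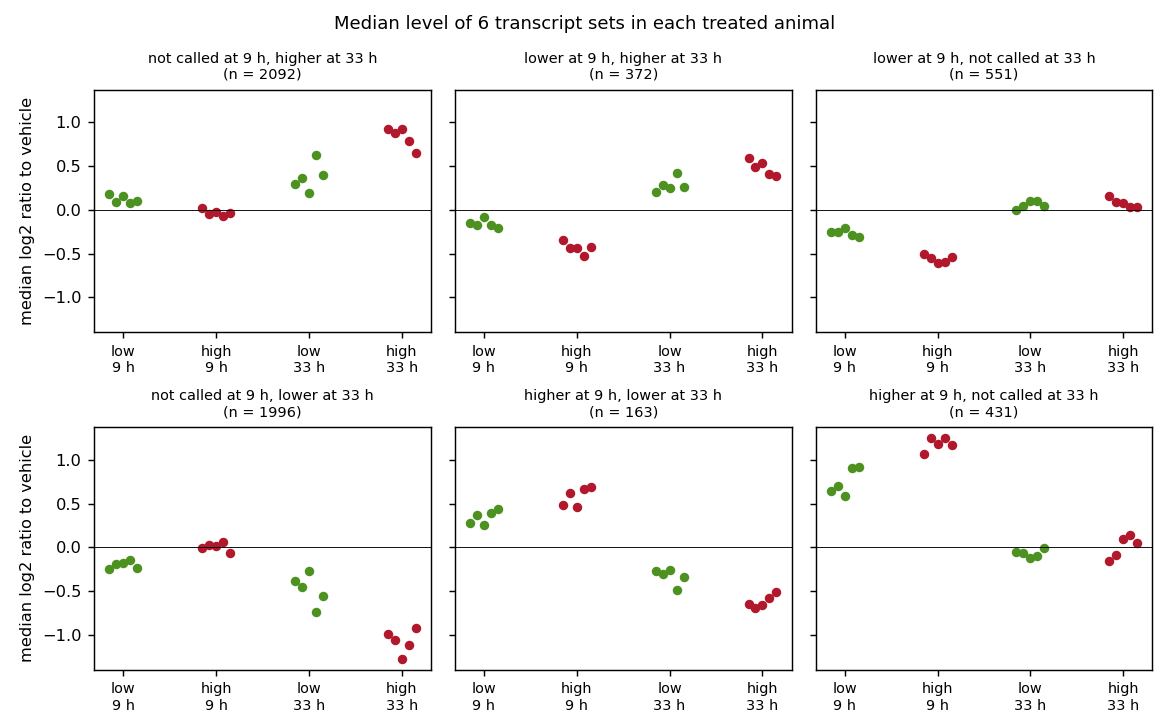
Each point is 1 animal (low dose green, high dose red). The y axis is the median log2 ratio, with TMM scaling, to the mean of the vehicle animals of the same time over the transcripts of a set. The sets were chosen by contrasts of high dose and vehicle animals in a model fitted to all animals. In the late sets the low dose animals of 33 h lay on the same side of 0 as the high dose animals. Their medians were nearer to 0, which follows in part from that choice.

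The low dose, measured against the same vehicle animals, had medians nearer to 0 than the high dose in the late sets at 33 h, but not at 9 h. The late sets were chosen because the high dose was called at 33 h and not at 9 h. This order of the doses therefore follows in part from the choice and is a description. The low dose effect differed between times for 2067 transcripts (11.3% of those tested) with TMM, 50.9% of them positive. With library totals it differed for 2943, 80.6% of them positive. The low dose values that follow are with TMM and were not taken under library totals. At 33 h the TMM factor was 0.978 to 1.23 in low dose and 0.822 to 0.894 in vehicle libraries, so their position relative to vehicle depends on the scaling. Over the late rises its median log2 fold change was 0.12 at 9 h and 0.38 at 33 h, and over the late falls -0.21 and -0.48. Over the rises lost by 33 h it was 0.77 and -0.09. In the low dose animals of 33 h, which are in no contrast that chose the sets but are in the model that gave the spread and scaling, the late rises ran from 0.20 to 0.63 and the late falls from -0.75 to -0.27. Since both doses share the vehicle animals, these values are set side by side only.

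Whether the change of effect differed between the doses was tested directly, by a contrast added after the data were seen in which the vehicle animals cancel. It was high minus low dose at 33 h, minus high minus low dose at 9 h. It was called for 4670 transcripts, 25.6% of those tested, with 2359 (12.9%) more positive and 2311 (12.7%) more negative at the high dose. Of the 1996 late falls 1407 were called more negative and 1 more positive, and of the 2092 late rises 1120 were called more positive and 0 more negative. Of the 431 rises lost by 33 h, 58 were called more negative and 3 more positive, and of the 551 lost falls, 169 were called more positive and 2 more negative. The high dose animals that chose these sets are also in this contrast, so these counts are not independent of the choice. Under library totals the contrast called 7360 transcripts, 6335 of them more positive at the high dose.

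Transcripts abundant in vehicle livers had mostly negative differences. Ranked by their mean TPM over both vehicle groups, 91 of 130 transcripts above 1000 TPM were more negative at 33 h and 0 more positive, with a median log2 difference of -1.20 (quartiles -1.74 and -0.48). Of 796 transcripts at 100 to 1000 TPM, 474 were more negative and 29 more positive, with a median of -0.70. At 10 to 100 TPM the directions were nearly balanced with TMM, 1272 negative against 1077 positive of 4585, but not with library totals, at 451 against 2706 and a median of 0.58. Below that, positive differences were the more frequent ones under both scalings, with TMM 1876 against 930 of 7690 at 1 to 10 TPM and 498 against 301 of 5038 under 1 TPM. A transcript low in vehicle livers can pass the count filter through treated livers alone, and it has little room to fall. The balance of the classes below 10 TPM is therefore a description. The medians of both abundant classes at 9 h were 0.05, so the difference lay in the 33 h effect, at -1.15 and -0.70. Under library totals the class above 1000 TPM still had 65 negative against 13 positive calls, with a median of -0.59. The class of 100 to 1000 TPM became nearly balanced, with 298 negative and 230 positive calls and a median of -0.08. With TMM the low dose effect, 33 h minus 9 h, had a median of -0.40 above 1000 TPM and of -0.16 at 100 to 1000 TPM.

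**Figure D4:**
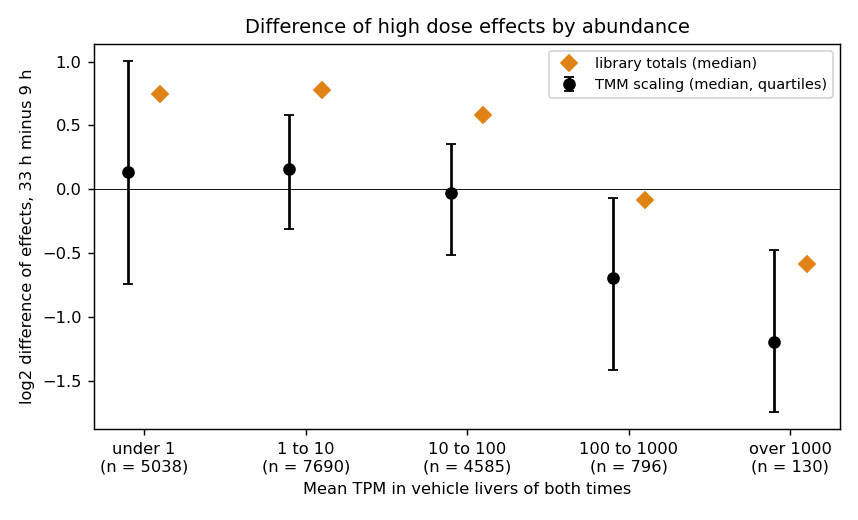
The y axis is the log2 difference of high dose effects (33 h minus 9 h) and the x axis the class of mean vehicle TPM, with medians and quartiles under TMM scaling (black) and medians under library totals (orange). Under both scalings the class above 1000 TPM has the lowest median, -1.20 and -0.59.

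The share of counts in the 100 transcripts most abundant in vehicle livers needs no scaling between libraries. It was 28.8%, 26.2%, 28.9%, 32.6% and 35.9% in the high dose livers of 33 h and 39.1%, 38.5%, 39.3%, 41.5% and 38.0% in those of 9 h. Every 33 h animal lay below every 9 h animal, and animal 5 of 33 h came closest. The means were 30.5 ± 3.77% and 39.3 ± 1.32% (SD, n = 5 each), -8.79 percentage points apart (exact permutation test, two-sided, p = 0.00794, which is the lowest p possible with 5 against 5 animals, and 0.0159 after adjustment over 2 tests). Vehicle livers held 40.5 ± 2.13% at 33 h and 40.6 ± 0.469% at 9 h (SD, n = 5 each), and their difference of -0.08 points did not pass the exact permutation test (p = 0.952). The vehicle range at 33 h was wider, from 38.1% to 43.2%, against 40.1% to 41.2% at 9 h. Low dose livers ran from 31.2% to 37.7% at 33 h, below every vehicle animal of that time, and from 36.6% to 40.8% at 9 h. Their shares were not tested.

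Of the 24 transcripts that the rule for named items selects, 4 are given by identifier, in each direction the one of smallest p among the pattern transcripts and among the abundant ones, and levels are in CPM, the library share on TMM-scaled totals. The gene of each is not given in the sources used here, so no function is stated. ENSCPOT00000002345.3, of 2757 bases, was lower at 9 h and higher at 33 h. In vehicle livers of 9 h it measured 13.7, 12.8, 14.8, 11.4 and 20.02 CPM, and in high dose livers of 9 h 11.3, 6.31, 8.69, 4.85 and 6.02 CPM. At 33 h it measured 12.7, 9.68, 9.51, 10.01 and 11.5 CPM in vehicle and 33.8, 30.5, 28.1, 27.4 and 32.3 CPM in high dose livers. At 9 h every treated animal was below every vehicle animal, by a narrow margin for treated animal 1, and at 33 h every treated animal was far above every vehicle animal. The log2 fold change was -0.97 ± 0.17 at 9 h (SE, edgeR adjusted p = 5.69e-05) and 1.51 ± 0.16 at 33 h (edgeR adjusted p = 1.61e-08). The difference of 2.47 ± 0.23 passed the test (SE, edgeR adjusted p = 1.09e-08). At the low dose the same transcript had 12.5 ± 1.40 CPM at 9 h and 24.5 ± 2.18 CPM at 33 h (SD, n = 5 each), and its change between times exceeded that of the low dose by 1.06 ± 0.23 (log2, SE, edgeR adjusted p = 0.00120).

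ENSCPOT00000003430.3, of 810 bases, was called higher at 9 h and lower at 33 h. It measured 33.4, 21.2, 36.8, 25.6 and 20.3 CPM in vehicle livers of 9 h and 211, 243, 312, 213 and 169 CPM in high dose livers of 9 h. At 33 h it measured 27.65, 30.8, 24.3, 31.9 and 42.6 CPM in vehicle livers and 11.7, 10.6, 26.5, 34.5 and 12.9 CPM in high dose livers. The groups were far apart at 9 h and overlapped at 33 h, where treated animals 3 and 4 lay within the vehicle range and the other three below it. The log2 fold change was 3.06 ± 0.32 at 9 h and -0.71 ± 0.30 at 33 h (SE, edgeR adjusted p = 0.0487 for the latter). Under library totals the 33 h value was -0.10 (edgeR adjusted p = 0.779), so its late fall below vehicle rested on TMM scaling. The difference of effects was -3.77 ± 0.43 (SE, edgeR adjusted p = 1.70e-07), and -3.15 under library totals (edgeR adjusted p = 7.22e-07). The low dose livers were between at 9 h, with 80.6 ± 35.3 CPM, and at 17.8 ± 3.54 CPM at 33 h (SD, n = 5 each). The contrast between the doses was -1.40 ± 0.42 (log2, SE, edgeR adjusted p = 0.0143).

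ENSCPOT00000012970.3, of 396 bases, was among the 3 most abundant transcripts with a negative difference, at a mean of 32823 TPM in vehicle livers of 9 h. It measured 6862, 6030, 5304, 4869 and 6478 CPM in vehicle and 7144, 6897, 6296, 6023 and 5573 CPM in high dose livers of 9 h. At 33 h it measured 6312, 5925, 7655, 7708 and 6158 CPM in vehicle and 1541, 790, 684, 1192 and 1675 CPM in high dose livers. The groups overlapped at 9 h and were far apart at 33 h, with animals 2 and 3 lowest. The log2 fold change was 0.11 ± 0.21 at 9 h (SE, edgeR adjusted p = 0.768) and -2.52 ± 0.22 at 33 h. The difference was -2.63 ± 0.31 (SE, edgeR adjusted p = 2.15e-07). The change between times was more negative than at the low dose by -1.64 ± 0.30 (SE, edgeR adjusted p = 0.000265), with low dose levels of 5295 ± 958 CPM at 9 h and 3036 ± 1029 CPM at 33 h (SD, n = 5 each).

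ENSCPOT00000001022.3, of 1454 bases, was, with TMM scaling, the most abundant transcript in vehicle livers with a called positive difference. Under library totals 13 transcripts above 1000 TPM had one as well. It measured 782, 794, 720, 578 and 646 CPM in vehicle and 740, 768, 787, 576 and 738 CPM in high dose livers of 9 h. At 33 h it measured 921, 541, 771, 719 and 831 CPM in vehicle and 1932, 1497, 869, 1001 and 1354 CPM in high dose livers. The 9 h groups covered the same range. At 33 h treated animal 3 lay within the vehicle range and the other four above it. The log2 fold change was 0.04 ± 0.16 at 9 h (SE, edgeR adjusted p = 0.908) and 0.81 ± 0.16 at 33 h (SE, edgeR adjusted p = 0.000132), and the difference was 0.78 ± 0.23 (SE, edgeR adjusted p = 0.00897). Under library totals the difference was 1.38. At the low dose the transcript stood at 713 ± 55.8 CPM at 9 h and 1551 ± 212 CPM at 33 h (SD, n = 5 each). The change between times was not called different between the doses, at -0.24 ± 0.23 (SE, edgeR adjusted p = 0.488).

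**Figure D5:**
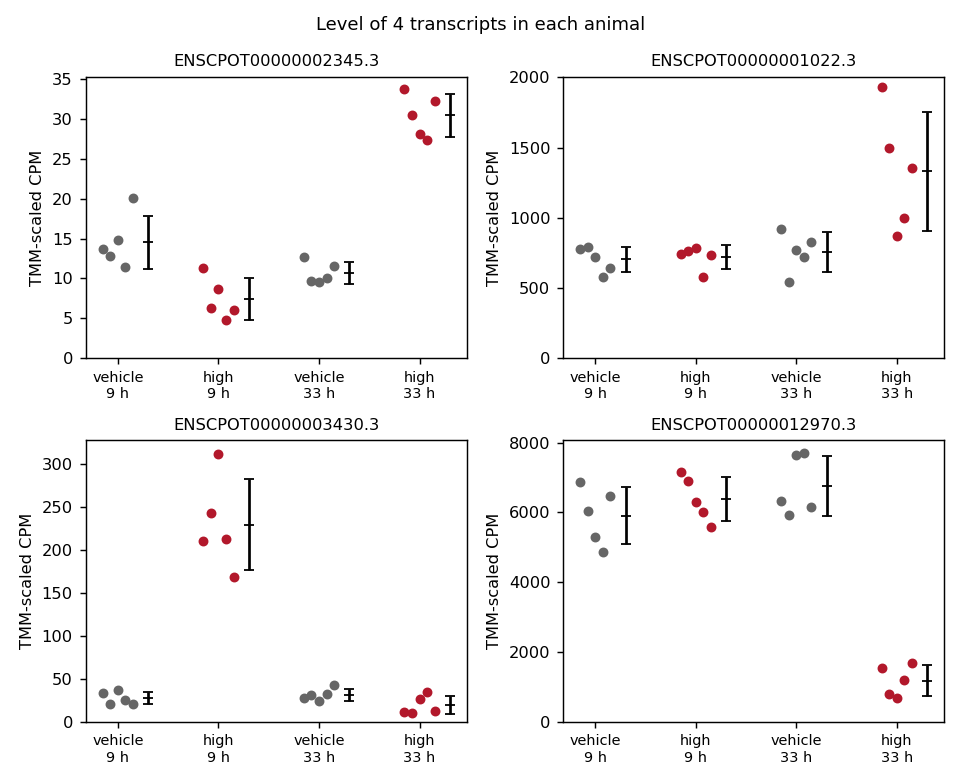
Each point is 1 animal, the y axis is TMM-scaled CPM from 0, and the black bar beside each group is the mean ± SD (n = 5). The upper transcripts are higher in high dose livers of 33 h, the lower left one is higher in those of 9 h (169 to 312 CPM), and the lower right one is lower in those of 33 h (684 to 1675 CPM).

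The other 20 selected transcripts show how far the largest fitted differences rest on near-zero levels. The 3 late rises with the largest differences had fitted log2 differences of 9.996 to 11.1, with 5 to 8 of the 20 libraries at 0. The 3 largest late falls had -12.6 to -9.33, with 6 to 14 libraries at 0, and the largest positive difference, 21.0 for a transcript lower then higher, had 15 libraries at 0. Such values depend on the prior count added in the fit and are no measure of a fold. Of the 3 largest late falls a pair had identical lengths and identical estimates in every library, so they count as 1 measurement. In the tested set 15 entries in 7 groups were identical in this way. The 3 largest among rises lost by 33 h had differences of -4.54 to -3.35, and the 3 largest among falls lost by 33 h 2.20 to 9.28. Among transcripts higher then lower, the other two had differences of -7.12 and -6.29 with no library at 0, and adjusted p of 1.24e-05 and 2.50e-06 by edgeR's quasi-likelihood test. In vehicle livers the former held 15.9 CPM at 9 h and 60.7 CPM at 33 h, and the latter 29.1 and 153 CPM. These fitted vehicle changes, 1.94 and 2.39 on the log2 scale, were not called but are part of the differences. High dose livers of 9 h held 62.2 ± 87.5 and 101 ± 42.1 CPM (SD, n = 5 each), a wide spread for the former. The levels of the selected transcripts were drawn from the authors' estimates, which divide reads among transcripts that share sequence.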

How the data were processed

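Poly-A enriched liver RNA was sequenced from both ends of stranded libraries, per the labels' protocols. The authors used kallisto 0.42.4, per the submitters' processing notes; the transcript set is not given in the sources used here. Per the file headers, the deposited tables hold estimated counts, not normalized, and TPM values, both per transcript. Reads that several transcripts could give are split among them by the estimate, so 1 transcript can move through that split alone.

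Dose and duration labels gave the groups; replicate numbers only name animals. Libraries of the same group were no copies of each other (chi-square per degree of freedom 23.6 to 190 over 40 pairs). Nothing in the labels gives a batch or date.

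Rounded estimated counts entered edgeR 4.0.16 (R 4.3.3). The filter was filterByExpr (minimum count 10, minimum total 15), which left 99.95% to 99.98% of counts. One robust quasi-likelihood model with TMM factors was fitted to all 30 animals (6 groups, 24 residual degrees of freedom); calls needed an adjusted p (Benjamini-Hochberg) below 0.05 over 18239 transcripts. A standard error is the fitted log2 value divided by the root of its F statistic. The model was tested on simulated counts.

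The comparison, lists and rules were chosen with earlier results of these data known. The rule for named items took, in each of 6 patterns of calls, the 3 transcripts of largest difference with at least 5 CPM in the highest group and no overlap between the treated animals of the different times (each minus its vehicle mean of log2 CPM, prior count 2), and the 3 most abundant called in each direction, 24 in all. The choice of 4 among them and the abundance classes were made after seeing values. Planned gene lists and cell type markers need gene names, which were not matched, and were not used. Alternatives were library totals, median-of-ratios factors, no count filter, at least 1 CPM in 5 libraries as the filter, limma 3.58.1 (voom with quality weights), DESeq2 1.42.0, the 4 groups alone and leaving out each animal.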

Additional observations from a re-analysis of the deposited data

Results flagged for a closer look

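Between the times, the high dose effect differed in each of the 4 transcripts given by identifier, which were selected for that. The log2 differences were 2.47 for ENSCPOT00000002345.3, -3.77 for ENSCPOT00000003430.3, -2.63 for ENSCPOT00000012970.3 and 0.78 for ENSCPOT00000001022.3, each past edgeR's test of the difference. One animal stood apart within its group: high dose animal 4 of 9 h had 576 CPM of ENSCPOT00000001022.3, against 738 to 787 CPM in the other four. Of 32 groups of 5 values examined in this way, 1 was flagged, where chance flags about 1 in 20.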

How the results depend on the processing

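The 4 transcripts given by identifier kept their direction and their call of the difference under all 7 alternatives and without each of the 20 animals. Without each animal in turn, the number of called differences of the high dose effect ran from 6045 (without vehicle animal 5 of 9 h) to 6788 (without high dose animal 5 of 33 h), and by alternative from 5986 with the 4 groups alone to 9718 with library totals, where 8447 were positive and 1271 negative. Of the 6548 called differences, 5897 to 6247 had the same call without 1 animal, 6313 with DESeq2, 6174 with limma voom and 5820 with the 4 groups alone, and 0 had the opposite call in these. Counting identical entries once, an alternative chosen after seeing the data, gave 6541. Late rises came to 5849 and late falls to 843 under library totals, and rises lost by 33 h to 160. The dose contrast gave 7360 calls with library totals, and 3932 to 5274 without 1 animal. The vehicle comparison was unstable: 470 calls with DESeq2, 236 with limma voom and 60 with the 4 groups alone, and 39 to 258 without 1 animal, namely 62, 57, 258 and 39 without animals 1, 2, 4 and 5 of 33 h and 54 and 64 without animals 3 and 4 of 9 h. The cause of these shifts was not tested. The share of the most abundant transcripts moved by -10.1 to -7.72 points without 1 animal, and by -6.03 with 50 transcripts or -12.3 with 500, each past the exact permutation test. No paired analysis was made, since each library was taken as 1 animal of a single time and the labels give no pairing between animals. Depth limits the transcripts near 0 counts, whose fitted differences are no fold, and counts give shares of a library, so the balance of directions cannot be fixed without a measure of total RNA.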

Other observations

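Transcript length differed between the sets of calls. The calls did not use length as such, but they rest on counts, which grow with length at a given TPM. The transcripts lower at both times were the longest sets, with median lengths of 3156 bases where the fall deepened, 3034 where no difference was detected and 2989 where it lessened, against 2537 bases over all tested transcripts. The late falls had a median of 2163 bases and the transcripts higher then lower 2286. Vehicle levels differed as well, at 21.3 TPM where a fall deepened, 9.55 where no difference was detected and 2.48 for rises at both times without a detected difference. Length and level were not separated, and no test was made.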
